A study of Homo sapiens with 16 samples.

Results

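H3K27me3 in cells expressing NSD2 with the substitution D1240A was compared, peak by peak, with H3K27me3 in cells expressing wild type NSD2 (WT). The comparison used the deposited H3K27me3 peak list of each form, 2188 peaks for D1240A and 3790 for WT, which make 5978 of the 45429 peaks in all 8 lists of the series. The series applied ChIPmentation, a chromatin immunoprecipitation in which a transposase adds the sequencing adaptors, to ask how mutant NSD2 alters chromatin marks. All groups were TKO cells, labelled as plasma cells with the genotype KMS-11 WHSC1(+/-), KMS-11 being an established multiple myeloma line and WHSC1 another name of NSD2. The D1240A group and the WT group each had 2 H3K27me3 samples and 1 H3K4me3 sample, and the same marks were measured in cells expressing F1295A and in cells for which the labels name TKO alone. The labels do not say how a form was expressed, at what level or in how many clones, and the genotype leaves a WHSC1 allele in every group.

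H3K27me3 is written by Polycomb repressive complex 2 and covers silent genes, often in broad domains over developmental regulators. NSD2 methylates H3K36, and H3K36 methylation on a histone tail hinders methylation of K27 on the same tail. In multiple myeloma with the t(4;14) translocation, NSD2 is placed under immunoglobulin enhancers and is overexpressed.

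Both H3K27me3 samples of a form stand in a single pooled list, so no difference given here has a replicate check and no test between D1240A and WT was possible. How deeply each sample was sequenced is unknown. A shallower sample, a stricter peak threshold and fewer marked regions therefore cannot be told apart in the numbers of peaks. The intervals are exact Clopper-Pearson 95% intervals and cover counting error alone, while peaks or genes that lie side by side are not independent. Among 10 plasma cell markers, 7 had an H3K4me3 peak, the mark of active and poised promoters, at the gene in D1240A cells and 8 in WT cells, IRF4, PRDM1 and XBP1 among them. The difference was SDC1, which encodes CD138, and CD38 and SLAMF7 had no H3K4me3 at the gene in either form. No H3K4me3 peak lay at the 7 markers of T, NK and myeloid cells or at the 7 of fibroblasts, endothelium and epithelium. Among the 6 B cell markers, CIITA and BACH2 had H3K4me3 in both forms.

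A WT peak is called lost where it shared no base with a D1240A peak, narrowed where D1240A peaks covered under 50% of its bases, and kept where they covered at least 50%. Signal is used here as a rank within its own list: a percentile of 0 is the weakest and 100 the strongest peak of that list by total signal, the sum the authors' peak caller gave. Genes count as marked with a peak at most 1 kb from the start, and H3K4me3 at a gene is read by the same limit. The start was known for 15811 of 19970 protein-coding genes, and either end of the gene record was used for the other 4159.

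The 250 bases before the start of 4 genes are given as single examples of the kinds of change, with every CG in capitals, since CG-rich promoters are the usual targets of Polycomb repressive complex 2. The genes are the highest in WT rank of those whose WT peaks were all lost (EFNA3, chr1:155078587-155078836, plus strand), the highest whose peak was overlapped elsewhere but left the gene without D1240A signal within 10 kb (METRNL, chr17:83080896-83081145, plus strand), the highest marked in both forms (C1QTNF8, chr16:1096245-1096494, minus strand) and, under the highest ranked D1240A peak among genes marked in D1240A and not WT, NES (chr1:156677408-156677657, minus strand). NES shares that peak, and C1QTNF8 its WT peak, with other genes. Sequences are from RefSeq, GRCh38.p14, 5′ to 3′ along the gene.
EFNA3: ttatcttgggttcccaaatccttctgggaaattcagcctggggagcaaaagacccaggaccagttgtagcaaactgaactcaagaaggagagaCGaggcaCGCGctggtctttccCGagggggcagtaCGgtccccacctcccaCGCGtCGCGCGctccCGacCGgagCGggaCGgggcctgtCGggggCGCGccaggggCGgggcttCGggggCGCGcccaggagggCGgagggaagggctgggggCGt
METRNL: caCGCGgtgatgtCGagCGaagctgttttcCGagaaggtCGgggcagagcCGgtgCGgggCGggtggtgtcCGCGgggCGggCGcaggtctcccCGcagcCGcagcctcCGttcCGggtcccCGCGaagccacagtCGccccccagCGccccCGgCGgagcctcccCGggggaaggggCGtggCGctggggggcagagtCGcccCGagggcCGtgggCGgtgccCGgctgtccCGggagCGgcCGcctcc
C1QTNF8: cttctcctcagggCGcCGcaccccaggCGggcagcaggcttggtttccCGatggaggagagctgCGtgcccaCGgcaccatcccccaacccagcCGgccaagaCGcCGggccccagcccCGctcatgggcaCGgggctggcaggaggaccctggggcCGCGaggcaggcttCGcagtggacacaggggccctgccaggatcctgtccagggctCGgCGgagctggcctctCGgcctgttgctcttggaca
NES: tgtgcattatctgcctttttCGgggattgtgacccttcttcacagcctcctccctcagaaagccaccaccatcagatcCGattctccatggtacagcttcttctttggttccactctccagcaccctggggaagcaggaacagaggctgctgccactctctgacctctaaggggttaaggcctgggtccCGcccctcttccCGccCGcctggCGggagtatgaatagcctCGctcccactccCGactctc
The numbers of CG differ among these 4, with 23 in EFNA3, 34 in METRNL, 17 in C1QTNF8 and 8 in NES. Over all promoters the number of CG did not sort the genes by what happened to their mark. In a window of 300 bases around the start, 492 genes marked in WT and unmarked in D1240A had a median of 19 CG, 551 marked in both had 17, and all 15811 promoters had 22. The motif CGCG, which reads the same on both strands and was searched in the same window, was in 58.9% (54.5 to 63.3) of promoters of genes unmarked in D1240A and in 57.4% (53.1 to 61.5) of those marked in both, against 65.2% of all promoters.

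Of the WT peaks, 1920 were lost in D1240A cells, 50.7% of the list (49.1 to 52.3). A further 239 were narrowed (6.31%, 5.55 to 7.13) and 1631 were kept (43.0%, 41.5 to 44.6). The narrowed share is set by where the line to kept is drawn: it was 22.5% when kept meant at least 80% covered and 0.317% when it meant at least 20%, while the share lost does not depend on that line. The lost peaks were the short and weak end of the WT list, with a median width of 7.31 kb and a median percentile of 27.8. Kept peaks had a median width of 14.3 kb and a median percentile of 72.8. Narrowed peaks were the widest as a class, with a median of 19.5 kb at a median percentile of 77.9, and D1240A peaks covered a median of 40.2% of their bases. Under equal numbers of peaks, the strongest 2188 of the WT list against the whole D1240A list, the share lost was 24.6%.

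Loss followed rank steeply. In deciles of the WT list by total signal, 1 being the weakest, 91.6% of peaks were lost in decile 1 and 93.9% in decile 2. The share was 59.6% in decile 5, 28.5% in decile 7 and 2.11% in decile 10. Narrowing had its highest share not at the weak end but in decile 9, where 19.8% of peaks were narrowed and 3.96% were lost. By width, 87.5% of the 336 WT peaks under 5 kb were lost, 71.8% of those from 5 to 10 kb, 36.6% from 10 to 20 kb and 4.85% from 20 to 50 kb. None of the 126 peaks of at least 50 kb was lost, which allows a share of up to 2.38% from 3 counts, and 10 of them were narrowed. A wide peak is less open to being called lost, since a single shared base prevents it, and total signal sums over width. Both trends are thus set in part by the definitions. Ranked by mean signal, the total divided by width, 89.2% were lost in decile 1 and 11.9% in decile 10. By that rank narrowing was highest in decile 6, at 10.6%.

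**Figure D1:**
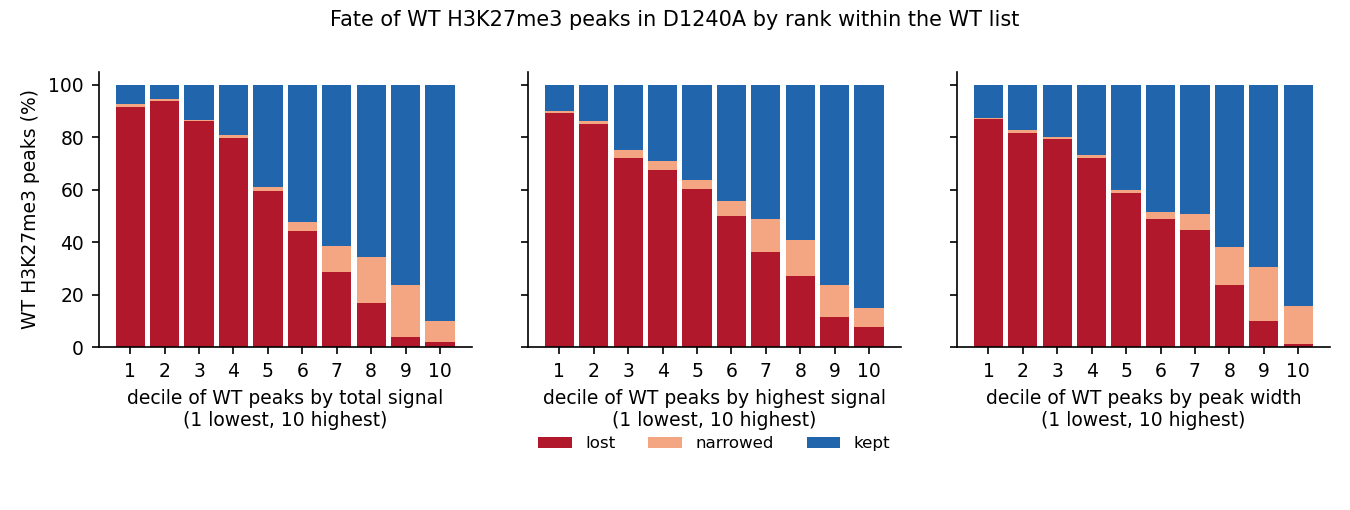
Share of WT H3K27me3 peaks (%) that were lost (red), narrowed (light) or kept (blue) in D1240A, in deciles of the WT list by total signal, highest signal and width, each decile holding 379 peaks. The lost share falls towards the high deciles in each panel, and the narrowed share by total signal reaches 19.8% in decile 9.

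A minority of lost peaks lay next to a retained domain. The median distance of a lost peak from the nearest D1240A peak was 64.4 kb, 188 of 1920 (9.79%) lay within 5 kb of one, and 203 (10.6%) lay more than 1 Mb from any. Loss was spread over the genome. Among the 20 chromosomes with at least 40 WT peaks, the share lost ran between 41.8% on chromosome 10 and 60.3% on chromosome 3. The chromosomes with fewer peaks all lay above that range. The shares were 82.4% of 17 peaks on chromosome 13 (56.6 to 96.2), 75% of 16 on chromosome 18 (47.6 to 92.7) and 62.5% of 24 on X (40.6 to 81.2).

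Some stretches lost every peak, beside 50.7% lost over the whole WT list. Those given here were picked for their length or density. Whether such runs exceed what that share alone would give was not tested. On chromosome 19, 13 neighbouring WT peaks across 4.24 Mb (chr19:13301629-17540257), with 85.5 kb marked in WT, had no D1240A peak among them, and they included peaks in the records of CACNA1A, a calcium channel gene, and CPAMD8. On chromosome 3, 11 peaks across 2.89 Mb and 122 kb marked were lost, with peaks in the records of ATP2B2, a calcium pump gene, and IQSEC1. Denser runs were 9 peaks within 0.406 Mb of chromosome 1 (chr1:110126330-110532726) with KCNA10, PROK1 and SLC6A17, and 9 within 0.418 Mb of chromosome 9 with AK8 and CFAP77. KCNA10 and PROK1, a potassium channel gene and a prokineticin gene, were marked at their starts in WT and unmarked in D1240A. The strongest peak of each of these 4 runs stood between percentiles 72.0 and 78.2 of the WT list.

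The strongest lost peak, at percentile 99.4, was 19.2 kb long at chr20:63501516-63520736 and lay in no protein-coding gene record. Next in rank was the 15.4 kb peak over EFNA3 (chr1:155070767-155086203, percentile 96.2), which encodes the ephrin-A3 ligand, followed by a peak inside CACNA1I, a T-type calcium channel gene (95.7), whose start was marked in both forms. Then came SMARCD3, a subunit gene of the BAF remodelling complex (94.2), and IGSF9 with SLAMF9 (93.8). The IGSF9 peak spanned 30.7 kb and the longest lost peak, at CARD10, 35.9 kb. At the other end, the weakest kept peaks included stretches of 0.099 and 0.173 kb at percentiles 0.0396 and 0.0923, wholly covered by longer D1240A peaks.

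Of the 55.7 Mb marked in WT, 54.4% was also marked in D1240A. Lost peaks held 28.1% of WT bases, 14.2% was trimmed from the edges of overlapped peaks, and 3.26% lay in gaps between D1240A pieces inside a WT peak. In the other direction, 5.51% of the 32.0 Mb marked in D1240A lay outside WT peaks, 1.76 Mb, of which 1.15 Mb were extensions past WT edges and 0.616 Mb were separate peaks. The D1240A list covered 0.575 times the bases of the WT list.

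The 1870 overlapped WT peaks have 3740 edges. The D1240A edge lay inside the WT edge at 2606 of these (69.7%) and outside at 1087 (29.1%). The median shift was 274 bp inward, with quartiles at 16.3 bp outward and 2772 bp inward, and 41.7% of edges were within 500 bp of each other. Many borders stood at nearly the same place in D1240A and WT cells, and shifts of more than 5 kb were inward at 569 edges and outward at 118. Beyond 20 kb there were 22 inward and 38 outward, and the largest shift was 211 kb outward, against 62.9 kb inward. An outward shift runs to the far end of the D1240A peak, also where that peak goes on over a neighbouring WT peak. The 211 kb shift was of this kind, under a 243 kb D1240A peak that also covered most of the RBFOX3 domain. Outward shifts thus include WT-marked DNA, and extensions outside all WT peaks came to 1.15 Mb. Both edges moved inward in 949 peaks (50.7% of the overlapped) and both outward in 199 (10.6%). D1240A peaks covered a median of 83.2% of an overlapped WT peak, and in 253 (13.5%) they stood in more than a single piece, up to 5. Split peaks were wide, with a median of 41.5 kb against 13.5 kb for those in a single piece. Joining was less common, with 44 D1240A peaks reaching over at least 2 WT peaks.

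**Figure D2:**
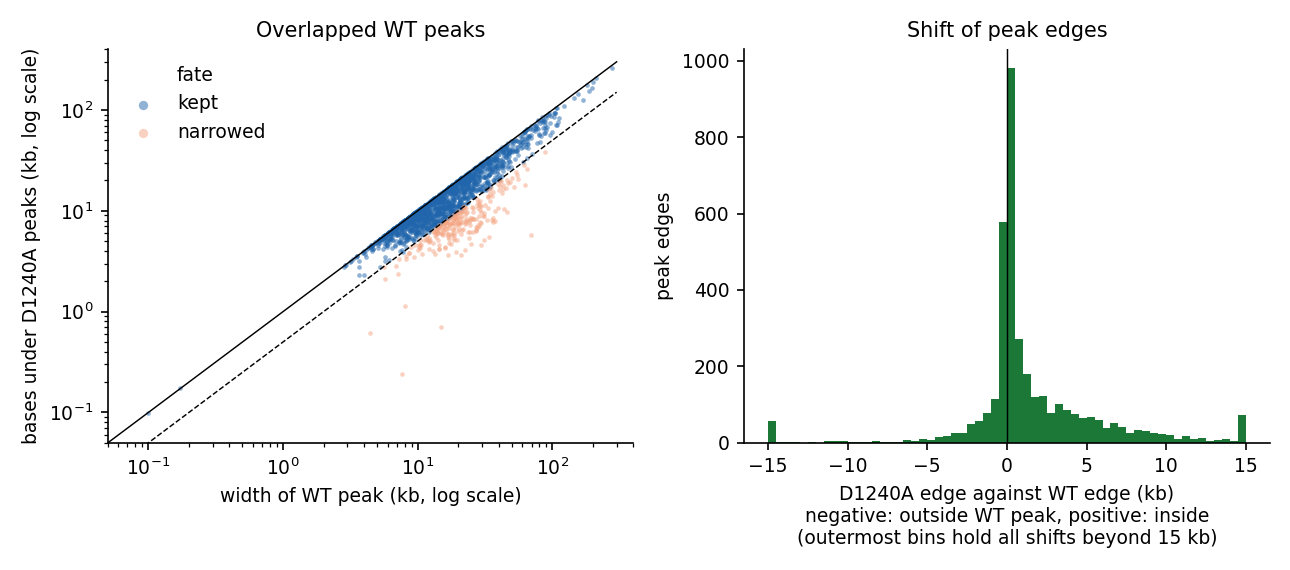
Left, bases under D1240A peaks against the width of the WT peak (kb, log scales) for 1870 overlapped WT peaks, kept in blue and narrowed in light, with the solid line at full cover and the dashed line at 50%. Right, shifts of the 3740 edges (kb), positive where the D1240A edge lay inside the WT peak; shifts beyond 15 kb are gathered in the outermost bins. The median is 274 bp inward, and 569 edges lay more than 5 kb inward against 118 outward. Outward shifts include those where a D1240A peak runs on over a neighbouring WT peak.

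The narrowed peak with the most bases lost lay inside KCNN3, a calcium-activated potassium channel gene, where a 69.9 kb WT peak at percentile 99.0 (chr1:154691162-154761101) was 8.28% covered. The start of KCNN3 itself lay under another WT peak and was marked in both forms. D1240A peaks covered 43.7% of the 87.9 kb peak at METRNL, 28.8% of the 62.8 kb peak in RAP1GAP and 23.9% of the 43.6 kb peak over KRT4, KRT79 and KRT78. The F1295A peaks covered 0% and the TKO peaks 90.3% of the same KCNN3 peak, and the comparisons of these forms with WT share the WT list. Among kept peaks, the widest was the 277 kb domain in the GSE1 record, 93.4% covered in 4 pieces. RBFOX3, which encodes the neuronal nuclear antigen NeuN, had 212 kb covered to 98.8% in a single piece. The 201 kb domain of CASZ1, a zinc finger factor gene, was 93.7% covered in 5 pieces, and the 121 kb domain over HOXC4 to HOXC13 was 91.1% covered in 4.

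Gene starts inside an overlapped peak were under D1240A signal in a larger share than the bases of those peaks. In narrowed peaks, 50 of 98 gene starts lay under the D1240A pieces (51.0%, 40.7 to 61.3), beside 35.8% of the bases of the 77 peaks that held them. In kept peaks, 433 of 504 starts did (85.9%, 82.6 to 88.8), beside 81.4% of the bases of 420 peaks. Whole peaks showed a difference by place that went with rank. Peaks at a gene start here include those at either record end of genes whose start was unknown. Of 1329 WT peaks at a gene start, 39.9% were lost (37.2 to 42.6), against 54.8% of 1224 peaks inside a gene record and 58.1% of 1237 elsewhere, and the median percentiles were 66.6, 44.8 and 39.0 in the same order. In the 4 weaker quintiles of rank this order was not seen: in the middle quintile 59.3% of peaks at gene starts were lost, against 46.5% inside gene records and 50.6% elsewhere, and in the weakest quintile 97.3% at gene starts, 93.8% inside records and 89.8% elsewhere. In the strongest quintile the shares were 2.48%, 4% and 3.60% in the same order, with overlapping intervals.

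**Figure D3:**
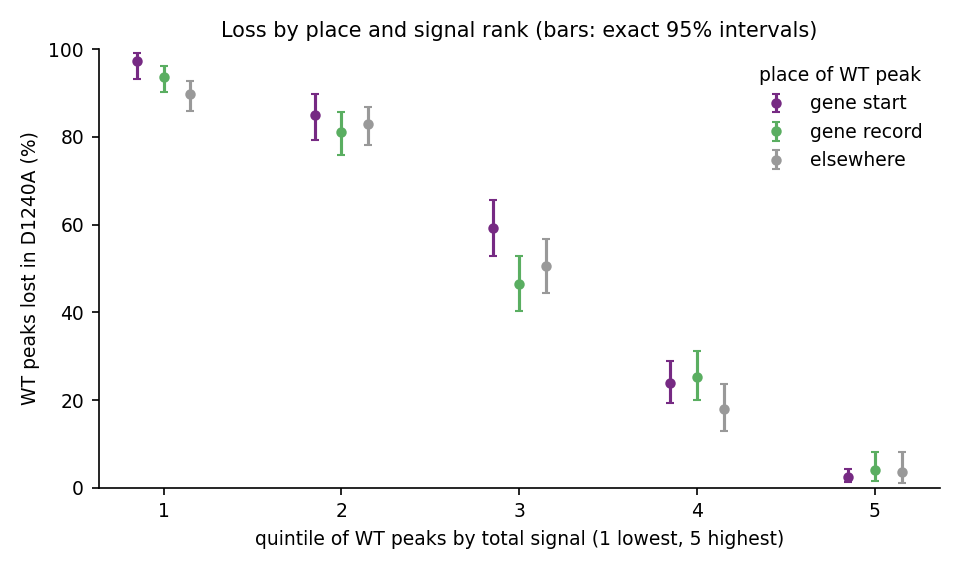
Share of WT H3K27me3 peaks lost in D1240A (%) by quintile of total signal in the WT list, for peaks at gene starts, inside gene records and elsewhere, with exact 95% intervals. Gene starts include either record end of genes whose start was unknown. The fall from the weakest to the strongest quintile is far larger than the spread between places.

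At genes, 901 were marked in D1240A and 1603 in WT, and 873 in both. The 730 marked in WT and unmarked in D1240A were 45.5% of the WT-marked genes (43.1 to 48.02) and 3.66% of all genes. Their WT peaks had a median percentile of 46.7, against 85.2 for genes marked in both and 72.2 for all genes marked in WT. For 562 of them every WT peak at the gene was lost. For the other 168 (23.01%) the WT peak was still overlapped elsewhere by D1240A peaks, so the D1240A peaks covered part of the domain but lay more than 1 kb from the start. In 545 of 730 (74.7%) no D1240A peak lay within 10 kb. With the strongest 2188 WT peaks, 396 genes were unmarked in D1240A, 32.2% of those marked in WT.

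The genes described next were taken by rule from gene lists or from the top of the ranking, and a gene's kb value is the length marked within 10 kb of its start, at most 20.001 kb with the start base itself, or of either record end where the start was unknown. The strongest WT-marked genes with no D1240A peak within 10 kb were METRNL, a secreted factor of the meteorin family, and POU2F2, the B cell factor Oct-2. METRNL had 0 kb in D1240A cells and 20.001 kb in WT cells, and the nearest D1240A peak lay 13.4 kb away. POU2F2 had 0 kb in D1240A and 11.4 kb in WT. Both lie in WT domains that D1240A peaks still overlapped, as do LSP1, SRCIN1, SLC35H1 and RAET1E. RAET1E, which encodes a ligand of the receptor NKG2D, had 0 kb in D1240A and 16.3 kb in WT, whereas its neighbour RAET1G in the same 64.8 kb WT peak had 11.4 kb in D1240A and 20.001 kb in WT. The strongest genes marked in both were C1QTNF8, CACNA1H, LMF1, SOX8 and SSTR5, which share a single 182 kb WT peak covered to 96.3%. C1QTNF8 and SSTR5 had 20.001 kb in both forms.

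**Figure D4:**
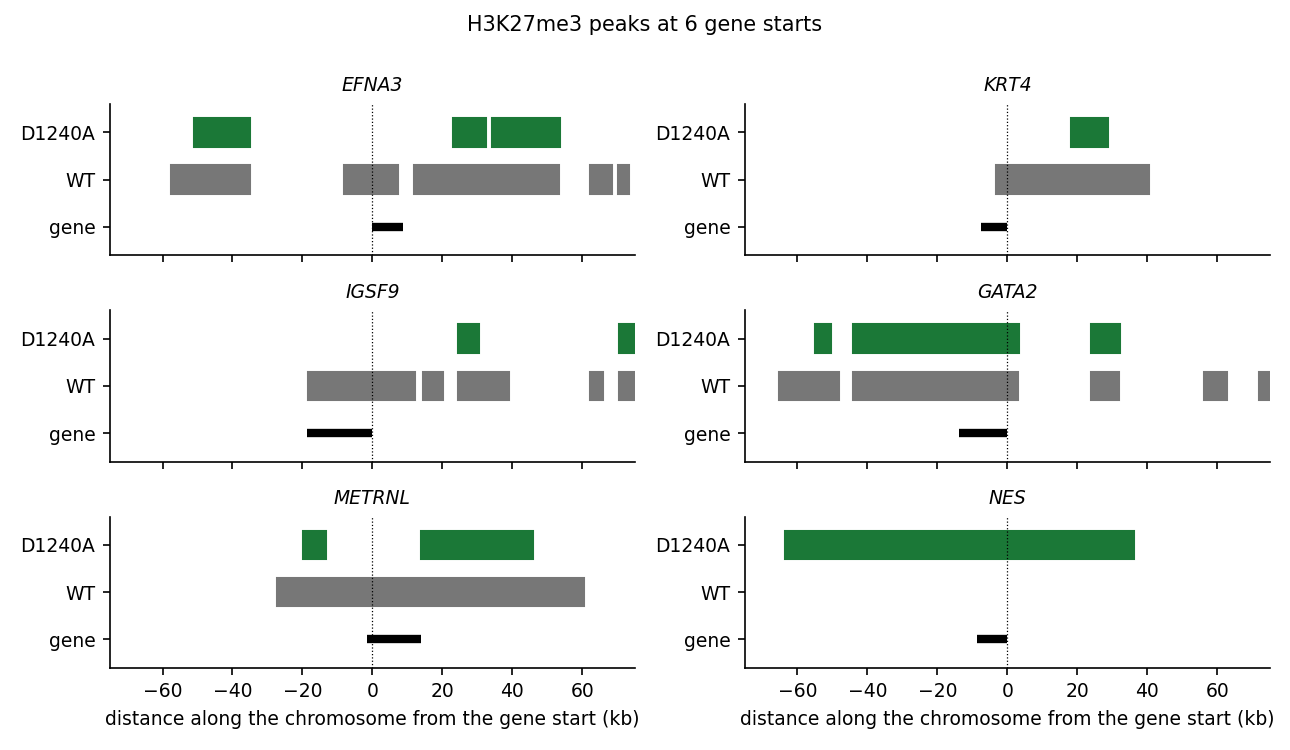
H3K27me3 peaks of D1240A (green, upper row) and WT (grey, middle row) within 75 kb of the starts of 6 genes, with the gene record in black and distance along the chromosome in kb. EFNA3 and IGSF9 lie under a WT peak with no D1240A counterpart, METRNL and KRT4 in the emptied part of a WT domain, GATA2 in a domain with matching edges and NES in a D1240A peak with no WT peak nearby.

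Transcription factors of development were mixed, beside the 45.5% of all WT-marked genes that were unmarked in D1240A. Of 13 HOX genes marked in WT, 1 was unmarked in D1240A, but these 13 share 4 WT peaks, at a median percentile of 99.7, and so are not 13 separate cases. Over whole gene records, 3 of 14 HOX genes were unmarked, beside 42.1% of all genes marked in WT by that rule. HOXB13, the distal gene of its cluster, had 0 kb in D1240A and 12.6 kb in WT. Of 20 homeobox and PAX genes outside the HOX clusters 7 were unmarked, and of 17 T-box, SOX, GATA and bHLH genes 9 were. DLX2 and PAX5 lost whole peaks, with 0 kb in D1240A and 10.5 and 15.4 kb in WT. In the bHLH class, MYOG, the myogenin gene of muscle, had 0 kb in D1240A and 18.3 kb in WT, and TAL1 and LYL1, factors of blood development, had 0 kb in D1240A and 9.03 and 10.4 kb in WT. GATA2 stood at the other end, with 13.4 kb in D1240A and 13.0 kb in WT and a WT domain of 47.0 kb that was 99.99% covered.

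The B cell programme had 25 members, of which 4 were marked in WT and 0 in D1240A, from WT peaks at a median percentile of 42.4. The unmarked share of all WT-marked genes was 45.5%. BCL6, the germinal centre repressor, had 0 kb in D1240A and 6.73 kb in WT. FCER2, which encodes CD23, was still close to its domain, with a D1240A peak 1.16 kb from the start and 7.37 kb marked in D1240A against 12.1 kb in WT. CD79B, a subunit of the B cell receptor, had the 4.66 kb WT peak of lowest rank among them, at percentile 0.646. With a window of 2.5 kb around gene starts, 3 of 4 were unmarked, and over whole gene records 3 of 6, beside 42.1% of all genes by whole records. None of the 4 had an H3K4me3 peak at the gene in D1240A or in WT. Among the 15 members of the 20 plasma cell identity genes with H3K4me3 in D1240A, against 16 in WT, SDC1 was not included; it had 8.28 kb of H3K27me3 in D1240A and 8.30 kb in WT.

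Among the D cyclin, MYC and CDK inhibitor genes, D1240A lacked the mark at 4 of the 5 that had it in WT, each by loss of the whole peak, beside 45.5% of all WT-marked genes unmarked. The 4 lost peaks stood between percentiles 36.1 and 64.9 of the WT list, a range in which loss was common, with 79.7% of all peaks lost in decile 4 and 28.5% in decile 7. CCND1, the cyclin D1 gene, had 0 kb in D1240A, 0 kb in F1295A, 10.0 kb in TKO and 13.7 kb in WT. CCND3 had 0 kb in D1240A and 5.15 kb in WT, and CDKN1A, the p21 inhibitor gene, had 0 kb in D1240A and 5.97 kb in WT. MYC had 0 kb in D1240A and 4.63 kb in WT, and was the gene of the 4 with H3K4me3 in both forms. MYCL had 12.9 kb in D1240A and 12.8 kb in WT, under a peak covered in full.

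Adhesion and matrix genes, which the series title names, went several ways, beside 45.5% unmarked among all WT-marked genes. All 5 integrin genes with the mark in WT also had it in D1240A, but the amount differed among them. ITGA5 had 20.001 kb in both forms, whereas ITGB2, the leukocyte beta subunit, had 8.84 kb in D1240A and 19.0 kb in WT, under a peak 50.4% covered in 2 pieces. With windows of 2.5 kb, 1 of 6 integrin genes was unmarked, and over whole gene records 2 of 9. Of 16 immunoglobulin-type adhesion and selectin genes 8 were unmarked in D1240A. IGSF9 had 0 kb in D1240A and 20.001 kb in WT, and L1CAM, a neural adhesion molecule, 0 kb in D1240A and 18.8 kb in WT. CNTN2, a contactin gene, had 20.001 kb in both. Of 7 cadherin genes, CDHR4 and CELSR2 were unmarked, from WT peaks at percentiles 36.4 and 19.9, and under equal numbers of peaks 0 of 5 were. Of 19 matrix genes 7 were unmarked (36.8%), and over whole gene records 6 of 34 (17.6%), beside 42.1% of all genes. LAMA5 and COL9A3 lost whole peaks, with 0 kb in D1240A and 7.31 and 7.75 kb in WT. HSPG2, which encodes perlecan, had 0.806 kb in D1240A and 14.1 kb in WT. COL7A1 and COL18A1 missed the 1 kb limit narrowly, with D1240A peaks 1.02 and 1.28 kb from their starts.

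**Figure D5:**
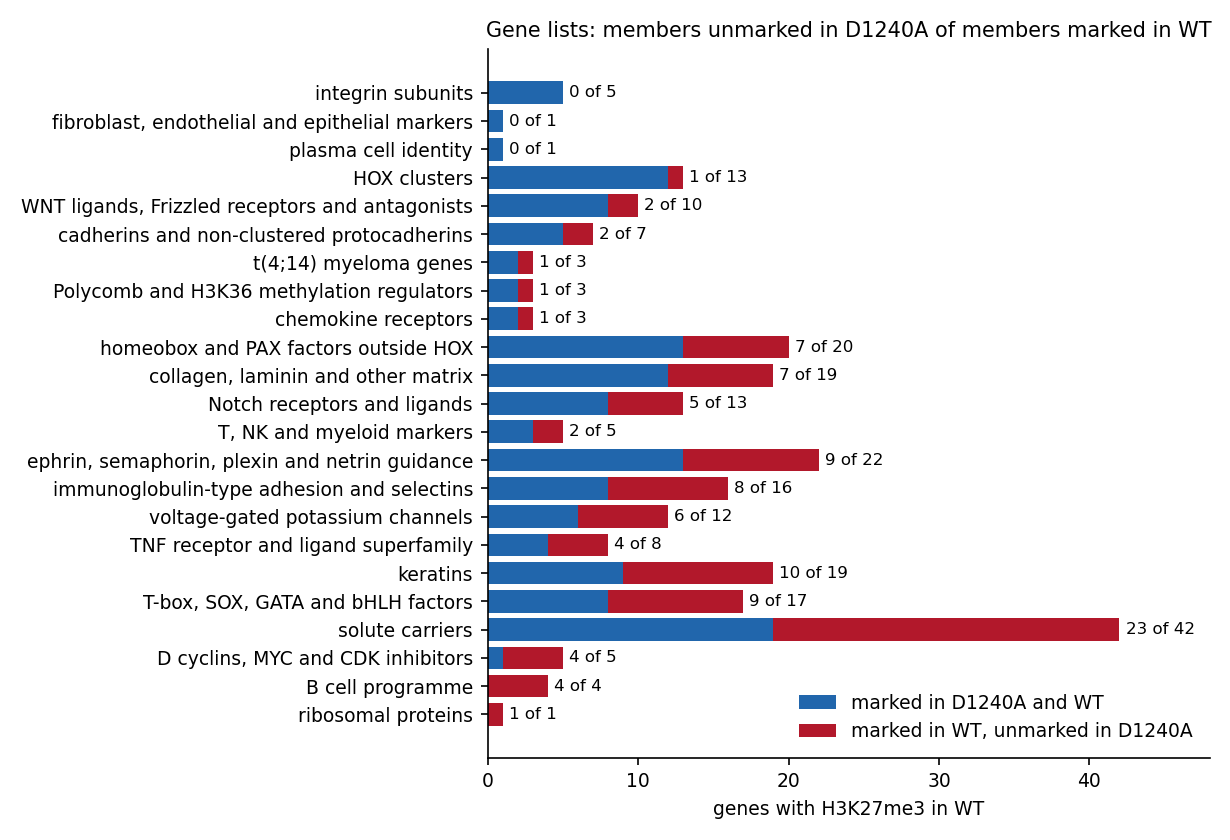
Genes with H3K27me3 at the gene in WT for 23 lists, split into those marked in D1240A and WT (blue) and those marked in WT and unmarked in D1240A (red), with the number unmarked in D1240A of those marked in WT printed beside each bar. Integrin subunits have 0 of 5 unmarked and HOX genes 1 of 13, while the B cell programme has 4 of 4 and the cyclin and MYC list 4 of 5, beside 45.5% over all genes marked in WT. The median WT percentiles of the marked members were 99.7 for HOX genes and 79.96 for integrins, against 42.4 for the B cell programme and 48.9 for the cyclin and MYC list, and the counts change over whole gene records to 2 of 9, 3 of 14, 3 of 6 and 4 of 5 in the order integrins, HOX, B cell, cyclins.

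Signalling genes lay near the share over all genes, 45.5%, in several lists. Of 22 ephrin, semaphorin, plexin and netrin genes 9 were unmarked, of 13 Notch pathway genes 5, and of 8 TNF family genes 4. NOTCH1 had 0 kb in D1240A and 9.88 kb in WT with H3K4me3 in both forms, and DLL1 and DLL3, Notch ligand genes, had 0 kb in D1240A and 17.2 and 11.5 kb in WT. HES1, a Notch target gene, had 17.5 kb in D1240A and 14.3 kb in WT. LTA, TNF and LTB share a 21.7 kb WT peak that was 30.6% covered. TNF had 6.63 kb in D1240A and 17.96 kb in WT and had its start under the D1240A piece, and LTB lay 4.42 kb from it. Of 10 WNT pathway genes 2 were unmarked, SFRP5 and RSPO3, but 6 of 14 were with the 2.5 kb window. Of 3 chemokine receptor genes, ACKR1 was unmarked.

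The 19 keratin genes marked in WT lay under 14 WT peaks, and 10 of them were unmarked in D1240A (52.6%), near the 45.5% over all WT-marked genes. KRT74 had 0 kb in D1240A and 19.9 kb in WT, under a lost peak of 24.7 kb that also held KRT72. KRT14, a keratin of basal epithelium, had 0 kb in D1240A and 18.7 kb in WT, while KRT16 and KRT17 shared a peak 96.8% covered. Of 12 voltage-gated potassium channel genes 6 were unmarked (50%), and of 42 solute carrier genes 23 (54.8%), which are also near that share. KCNH3 had 0 kb in D1240A and 18.02 kb in WT. SLC22A6, an organic anion transporter gene, had 0 kb in D1240A and 15.9 kb in WT. Among Polycomb and H3K36 genes, CBX2 and CBX8, subunits of Polycomb repressive complex 1, were marked in both forms. Of 3 genes of the t(4;14) list marked in WT, MYRF was unmarked in D1240A, beside 45.5% of all WT-marked genes. Its WT peak was 59.8% covered, the nearest D1240A peak lay 5.87 kb away, and MYRF had 4.13 kb in D1240A and 20.001 kb in WT. FGFR3 and TMEM132A were marked in both forms with less of the mark in D1240A. FGFR3 had 10.99 kb in D1240A and 20.001 kb in WT. RPL38 was the ribosomal protein gene marked in WT, and its nearest D1240A peak lay 1.11 kb away. Of 20 housekeeping genes 0 were marked in either form.

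At genes whose H3K27me3 was lost, H3K4me3 was found in a somewhat smaller share in D1240A than in WT, as it was over all genes, where the shares were 40.7% in D1240A and 42.7% in WT. Of the 730 genes unmarked in D1240A, 96 had H3K4me3 at the gene in D1240A (13.2%, 10.8 to 15.8) and 111 in WT (15.2%, 12.7 to 18.02). In 0 of 730 was H3K4me3 in D1240A and not WT, which allows a share of up to 0.411% from 3 counts, and in 15 it was in WT and not D1240A. Over all genes, H3K4me3 was in D1240A and missing from WT at 48 (0.24%), and the opposite held at 437 (2.19%). The interval of the count of 0 reached 0.504%, so that count cannot be told from the 0.24% over all genes at this number of genes. The 15 genes were 2.05% of the 730, but a smaller share of the 730 than of all genes had H3K4me3 in WT. Among genes with H3K4me3 in WT, D1240A lacked it at 15 of these 111, against 437 of 8524 over all genes. It was also lacking at 9 of 63 genes marked with H3K27me3 in both forms. Both shares are larger than that over all genes, and why was not tested. Of the 873 genes marked in both, 57 had H3K4me3 in D1240A and 63 in WT, and 3 had it in D1240A and not WT: DLL4, a Notch ligand gene, FBXL16 and KCNH2. The H3K4me3 comparison rests on 1 library per form.

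Of 2188 D1240A peaks, 38 (1.74%, 1.23 to 2.38) shared no base with a WT peak. The number was 58 when under 50% of a peak had to lie in WT peaks, and 246 against the strongest 2188 WT peaks alone, a count that takes in D1240A peaks over weak WT peaks. Of the 38, 29 stood below the 50th percentile of the D1240A list. The 6 above the 90th percentile were all on chromosome 1, as were 20 of the 38, beside 399 of all 2188 D1240A peaks. Several of the 6 lie side by side between chr1:156613948 and chr1:156974505 and so are not separate cases. The highest was a 52.3 kb peak inside TTC34 (chr1:2647965-2700310, percentile 99.7), 46.0 kb from the nearest WT peak, and the start of that gene was marked in both forms. A 99.7 kb peak (chr1:156613948-156713676) covered HAPLN2, BCAN, NES and CRABP2, which encode a hyaluronan link protein, brevican, nestin and a retinoic acid binding protein. A 69.3 kb peak nearby lay over INSRR, which encodes a receptor tyrosine kinase. NES had 20.001 kb in D1240A, 0 kb in F1295A, 20.001 kb in TKO and 0 kb in WT. CELF3, at a 31.5 kb peak, had 20.001 kb in D1240A and F1295A and 0 kb in TKO and WT. Away from chromosome 1 the highest was a 9.90 kb peak over CRIP2 on chromosome 14 at percentile 78.9, with H3K4me3 at the gene in both forms. At genes, 28 were marked in D1240A and not WT, 0.14% of all genes and 3.11% of those marked in D1240A. With no WT peak within 10 kb there were 13, and without a segment of 12 Mb of chromosome 1 there were 18. CFAP46 shows the smaller kind of change, with 11.5 kb in D1240A and 6.10 kb in WT.

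MicroRNA hairpins showed the same kinds of fate, and some paralogous pairs with shared seeds fell on both sides. The microRNAs named here were chosen after their values were seen. Mature sequences from RefSeq, GRCh38.p14, are given 5′ to 3′ with the seed, bases 2 to 8, in capitals, first for pairs that share a seed and then for the pair that shared a lost peak.
hsa-miR-208a-3p: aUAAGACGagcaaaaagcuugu
hsa-miR-208b-3p: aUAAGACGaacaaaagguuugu
hsa-miR-129-1-3p: aAGCCCUUaccccaaaaaguau
hsa-miR-129-2-3p: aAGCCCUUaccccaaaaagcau
hsa-miR-200b-3p: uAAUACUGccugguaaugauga
hsa-miR-429: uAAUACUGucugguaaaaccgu
hsa-miR-143-3p: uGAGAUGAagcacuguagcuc
hsa-miR-145-5p: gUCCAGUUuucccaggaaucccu
Of 1558 hairpins, 64 lay under a D1240A peak and 99 under a WT peak. Of the 99, 37 (37.4%, 27.9 to 47.7) were under no D1240A peak, 22 in lost peaks and 15 in the uncovered part of overlapped peaks. The interval takes in the 45.5% of WT-marked genes unmarked in D1240A, so the hairpins as a set cannot be told from genes. The limits were unlike, since a hairpin had to lie under a peak and a gene needed a peak within 1 kb. MIR208A and MIR208B, heart microRNAs in myosin genes that share the seed UAAGACG, are neighbours on chromosome 14. MIR208A (chr14:23388596-23388666, minus strand) lay in a lost 20.8 kb peak, 11.3 kb from the nearest D1240A peak. MIR208B (chr14:23417987-23418063, minus strand) lay in the adjacent 25.1 kb peak, which was 84.4% covered. MIR129-1 on chromosome 7 was in a lost 15.3 kb peak at percentile 65.3, while MIR129-2 on chromosome 11, with the same 3p seed AGCCCUU, was in a 10.4 kb peak at percentile 57.2 that was 98.4% covered. MIR200B and MIR429, epithelial microRNAs with the seed AAUACUG, shared a 23.4 kb peak 94.3% covered. MIR143 and MIR145, a pair known from smooth muscle, both lay in a lost 16.9 kb peak (chr5:149414265-149431213) at percentile 50.5. MIR126, an endothelial microRNA in the EGFL7 locus, was at the border of an 87.6 kb peak that was 75.9% covered, with the nearest D1240A peak 4.84 kb away.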

How the data were processed

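The submitters' processing notes name Trimmomatic 0.36, FastQC 0.11.4, Bowtie2 2.4.5, SEACR 1.3 and GRCh38, without the calling mode, control, threshold or way of combining replicates (not given in the sources used here). The deposited lists give each peak with the total signal, a sum of coverage, that the authors' caller wrote. They also hold the highest signal in a peak, which in the H3K27me3 lists is a score in steps of 0.5 as deposited, of unknown scale. Both were used as ranks within a list. Depth is unknown, so the precision of single peaks is too. IgG (4 samples) was not analysed here, and 0 columns of per-sample values were left unused.

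Peaks were compared by shared bases (at least 1 bp) in Python 3.11.15 with numpy 2.4.6, pandas 2.3.3, scipy 1.17.1 and matplotlib 3.10.9, and the steps were tested on simulated data. Genes and sequences came from RefSeq tables of GRCh38.p14, with chromosomes 1 to 22 and X used. Of 24 gene lists, up to 4 members without a D1240A peak within 10 kb and 4 marked in both were named by WT rank, with the 8 leading genes overall of each kind, the 8 whose overlapped WT peak lost the most bases, and 20 marked in D1240A and not WT. Other list members named as withdrawn or near a D1240A peak, and genes named with single peaks, runs or H3K4me3, were picked after their values were seen. Some genes that the rule or the lists take are left out of the text. Members, lists and rules were chosen with earlier results of these data known.

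Alternatives changed the cover that counts as kept, joined peaks within 5 kb, took the stronger 50% of each list or equal numbers of peaks, widened the gene window to 2.5 kb or the whole record, asked for no peak of the other form within 10 kb, or left out 12 Mb of chromosome 1. Genes with a promoter entry alone and genes outside chromosome X were added after seeing the data.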

Additional observations from a re-analysis of the deposited data

How the results depend on the processing

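No paired analysis was possible because both replicates of a form stand in a single pooled list, and for the same reason no replicate could be left out. Of 61 values recomputed for the main comparisons, 36 stayed within their counting interval (counts within 1.5 times) and 25 moved further. The share of WT peaks lost, 50.7%, became 54.9% in the stronger 50% of each list, 24.6% with equal numbers of peaks by total signal and 30.8% by highest signal. The narrowed share, 6.31%, became 22.5% and 0.317% when kept meant 80% and 20% covered, 9.33% with peaks within 5 kb joined, 4.33% in the stronger 50%, and 10.4% and 9.37% with equal numbers by total and by highest signal. The kept share, 43.0%, became 26.9%, 49.0%, 41.3%, 40.8%, 65.0% and 59.9% under the same 6 settings. D1240A peaks outside WT numbered 58 when under 50% of a peak had to lie in WT peaks and 246 with equal numbers. Among WT-marked genes, 42.1% had no mark in D1240A over whole gene records, 32.2% (396 genes) with equal numbers, 53.1% in the stronger 50% and 34.0% with no D1240A peak within 10 kb. Genes marked in D1240A and not WT numbered 69 with equal numbers, 13 with no WT peak within 10 kb and 18 without the chromosome 1 segment. Equal numbers cut the WT list and leave the D1240A list whole, which removes weak WT peaks by construction; for the other changes the cause was not tested. Of 72 recomputed counts of list members, 21 moved by more than 1.5 times, or from or to 0. The lost count under equal numbers was 4 of 17 for guidance genes, 6 of 15 for keratins, 15 of 34 for solute carriers, 3 of 11 for Notch genes, 2 of 6 for TNF genes, 2 of 2 for the B cell programme, 0 of 8 for WNT genes and 0 of 2 for chemokine receptors.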
